A study of Mus musculus with 24 samples.

Results

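The Nr4a genes Nr4a1, Nr4a2 and Nr4a3 were described in 24 mouse libraries from the anterior cingulate cortex, which is part of the medial frontal cortex. They are 3 of the 15232 genes in the table of expression values, and 3 of the 12572 genes with a mean of at least 1 FPKM (fragments per kilobase of transcript, relative to all mapped fragments). They were chosen by name and with their levels known, because Nr4a1 differed from Nr4a2 and Nr4a3 across the arms and between animals numbered over and under 1000. Differences of these genes between arms and number ranges are therefore given as descriptions, without a test.

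Each library holds bulk poly(A) RNA from the whole area of 1 animal, collected within an hour after behaviour ended. The labels give 3 arms of 8 animals, with 4 of each sex: wild type (WT) without training, Thbs1/2 KO without training, and Thbs1/2 KO with training. The targeted genes code for 2 thrombospondins, proteins that astrocytes release and that bear on synapse formation. Training took place in a Skinner box under food deprivation, so training and food deprivation cannot be told apart, and untrained animals had food at will. Strain, age and the way the deletion was made are not given in the sources used here, and no trained arm labelled WT was analysed here. All 8 trained animals had numbers over 1000, as did 2 untrained males labelled KO and 1 untrained male labelled WT, while the other 13 untrained animals had numbers under 1000. Among females, animal number and training cannot be told apart.

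The NR4A proteins are orphan nuclear receptors: Nr4a1 encodes Nur77, Nr4a2 encodes Nurr1 and Nr4a3 encodes Nor1. Their genes are immediate-early genes, which neurons switch on within minutes to hours of activity through calcium, cyclic AMP and CREB, so the receptors are controlled largely by how much of them is made. They bind a DNA element called NBRE as monomers, and Nur77 and Nurr1 can also pair with retinoid X receptors. In forebrain they are known for their part in long-term memory, and Nurr1 also for the making of midbrain dopamine neurons.

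The stretches before the start sites are shown because CREB acts on these genes through its element, the CRE (TGACGTCA), or its half-site (TGACG). All 3 genes matched the RefSeq table of mouse promoters (GRCm38.p6, the build also known as mm10), each with 1 start site. The 250 bases before the start are printed 5′ to 3′ on the strand of the gene. Capitals mark the half-site on either strand, where CGTCA is the half-site on the opposite strand. Nr4a1 is at chr15:101266596-101266845 on the plus strand, inside the span of the gene, so this start is not its most upstream one. Nr4a2 is at chr2:57124004-57124253 on the minus strand. Nr4a3 is at chr4:48045055-48045304 on the plus strand, and its gene span also begins before the start site used.
Nr4a1: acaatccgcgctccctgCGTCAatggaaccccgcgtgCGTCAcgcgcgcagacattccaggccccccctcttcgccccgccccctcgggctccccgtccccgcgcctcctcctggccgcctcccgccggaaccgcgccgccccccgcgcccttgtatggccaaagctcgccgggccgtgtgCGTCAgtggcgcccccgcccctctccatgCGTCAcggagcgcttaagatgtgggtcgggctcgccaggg
Nr4a2: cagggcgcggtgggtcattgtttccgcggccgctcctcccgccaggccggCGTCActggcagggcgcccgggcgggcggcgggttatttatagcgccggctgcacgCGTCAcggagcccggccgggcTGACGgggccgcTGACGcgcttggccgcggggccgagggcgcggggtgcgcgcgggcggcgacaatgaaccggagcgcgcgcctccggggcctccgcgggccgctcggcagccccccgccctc
Nr4a3: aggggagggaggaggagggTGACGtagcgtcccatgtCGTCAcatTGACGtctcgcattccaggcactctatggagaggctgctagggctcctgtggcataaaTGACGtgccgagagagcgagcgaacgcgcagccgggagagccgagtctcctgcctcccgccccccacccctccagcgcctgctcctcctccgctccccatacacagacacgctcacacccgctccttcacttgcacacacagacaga

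Each of the 3 promoters held 4 half-sites. In Nr4a1 all 4 were on the opposite strand, beginning 233, 213, 69 and 40 bases before the start. In Nr4a2 they began at 200 and 144 bases on the opposite strand and at 123 and 111 bases on the strand of the gene. In Nr4a3 they began at 231, 205 and 147 bases on the strand of the gene and at 213 bases on the opposite one. Background shares come from windows of 300 bases, which add the 50 bases after the start. Of 32851 such promoters, 20.81% held at least 1 half-site on either strand and 0.23% held at least 4. Among the 9690 promoters with a GC content of at least 60%, the share with at least 4 was 0.56%, and the GC contents of the Nr4a1, Nr4a2 and Nr4a3 windows were 72.3%, 81.7% and 64.7%, against a median of 52.7%. The full CRE, which contains the half-site and which 1.79% of promoters held, was not in these 3 windows, nor was the NBRE (AAAGGTCA, 1.51%) or the CArG box of serum response factor (1.63%). The Nr4a2 window alone of the 3 held a match to the MEF2 motif, which 3.19% of promoters held. It began 167 bases before the start and overlapped the letters TATTTATA. These are matches of letters on both strands, and binding was not measured.

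The libraries carried cortical markers, while Thbs1 and Thbs2 ran opposite to the genotype named on them. Summed over 8 markers of excitatory cortical neurons, libraries held 604.7 to 798.9 FPKM, apart from untrained male library 3 labelled KO. That library held 237.6 FPKM, against 609.2 to 749.4 FPKM in the other 7 of its arm. It also held 767.1 FPKM over 10 markers of striatal projection neurons, against 89.2 to 384.7 FPKM, and 555.8 FPKM over 6 oligodendrocyte markers, against 932.8 to 1061 FPKM. In libraries labelled WT, Thbs1 had 0.512 ± 0.147 FPKM and Thbs2 2.02 ± 0.294 FPKM, below the 3.68 ± 0.840 and 3.51 ± 0.378 FPKM of untrained libraries labelled KO (SD, n = 8 each). The text thus speaks of libraries labelled WT or KO, and each direction rests on the labels. Depth recovered from the values was 12314984 to 27156302 reads per library. In bulk RNA, fewer cells of a type and less RNA per cell cannot be told apart.

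Nr4a1 was the most abundant of the 3 per length of gene, and within groups of arm and sex it varied most on the log2 scale. Its mean over the 24 libraries was 74.5 FPKM (SD 24.9), against 12.3 FPKM (SD 3.5) for Nr4a3 and 9.48 FPKM (SD 3.22) for Nr4a2. Over all 24 libraries the coefficient of variation was 33.5% for Nr4a1, 34.0% for Nr4a2 and 28.4% for Nr4a3. Nr4a3 was above Nr4a2 in every library, with a ratio from 1.08 to 1.64, while the ratio of Nr4a1 to Nr4a3 ran from 3.31 to 10.4. Within the 6 groups of arm and sex the SD of log2(FPKM + 1) was 0.52 for Nr4a1, larger than that of 99.2% of tested genes. It was 0.27 for Nr4a2 (larger than 93.9%) and 0.23 for Nr4a3 (larger than 90.0%), beside a median of 0.12 over tested genes. Trained females were an exception, with a coefficient of variation of 6.51% in Nr4a1 against 16.9% in Nr4a2 and 9.70% in Nr4a3. Over the whole trained arm it was 14.8%, 16.5% and 7.92%. The values rested on 1479 to 5232 reads of Nr4a1, 250 to 1087 reads of Nr4a2 and 676 to 1971 reads of Nr4a3. Counting alone gives a coefficient of variation of at most 2.6%, 6.33% and 3.85%.

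Nr4a1 overlapped between all arms. In untrained females labelled WT it was at 69.5, 63.9, 70.7 and 41.4 FPKM, and in males at 96.4, 47.2, 60.8 and 78.0 FPKM. In untrained females labelled KO it was at 41.7, 38.5, 40.9 and 103.1 FPKM, and in males at 107.3, 96.2, 28.6 and 70.3 FPKM. This arm fell into a low set, 4 libraries at 28.6 to 41.7 FPKM, and 4 libraries at 70.3 FPKM or more, and the lowest value was that of male library 3 with its low cortical and high striatal markers. In trained females labelled KO it was at 89.4, 88.1, 100.9 and 89.5 FPKM, and in males at 64.3, 102.4, 109.5 and 89.8 FPKM. The trained arm lacked the low values of the untrained ones, but only 1 trained library lay above the highest untrained library labelled KO. The arm means were 66.0 ± 17.3, 65.8 ± 32.5 and 91.7 ± 13.6 FPKM (SD, n = 8 each).

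On average Nr4a2 was lowest in the untrained arm labelled WT and highest in the trained arm. In females labelled WT it was at 7.93, 7.56, 4.99 and 8.32 FPKM, and in males at 7.66, 8.18, 3.97 and 5.37 FPKM. In untrained females labelled KO it was at 8.50, 6.35, 8.92 and 8.24 FPKM, and in males at 11.5, 9.10, 6.47 and 10.2 FPKM. In trained females it was at 14.3, 17.7, 12.8 and 12.3 FPKM, and in males at 12.7, 10.6, 11.6 and 12.2 FPKM. All 8 trained libraries lay above all 8 libraries labelled WT, and 7 of 8 lay above every untrained library labelled KO. The arm means were 6.75 ± 1.70, 8.66 ± 1.73 and 13.03 ± 2.15 FPKM (SD, n = 8 each). Nr4a2 lies on chromosome 2, as does Thbs1, with 227 tested genes and 61.0 megabases between them. Whether sequence carried along with the Thbs1 locus bears on its level was not tested.

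Nr4a3 was highest in the trained arm, and the order of the untrained arms was not steady. In females labelled WT it was at 11.3, 11.8, 8.07 and 11.1 FPKM, and in males at 10.04, 10.6, 6.12 and 8.80 FPKM. In untrained females labelled KO it was at 11.1, 9.05, 9.84 and 9.87 FPKM, and in males at 16.5, 10.03, 8.63 and 12.3 FPKM. In trained females it was at 16.04, 19.1, 16.3 and 15.5 FPKM, and in males at 15.0, 17.2, 15.7 and 15.9 FPKM. The untrained arms overlapped widely: the mean was higher in the arm labelled KO, the median was higher in the one labelled WT (10.3 against 9.95 FPKM), and in females the mean was too (10.6 against 9.96 FPKM). The 8 trained values were close together and all above those labelled WT, and a single untrained library labelled KO, male library 1 at 16.5 FPKM, lay within the trained range. The arm means were 9.74 ± 1.94, 10.9 ± 2.53 and 16.3 ± 1.29 FPKM (SD, n = 8 each).

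**Figure D1:**
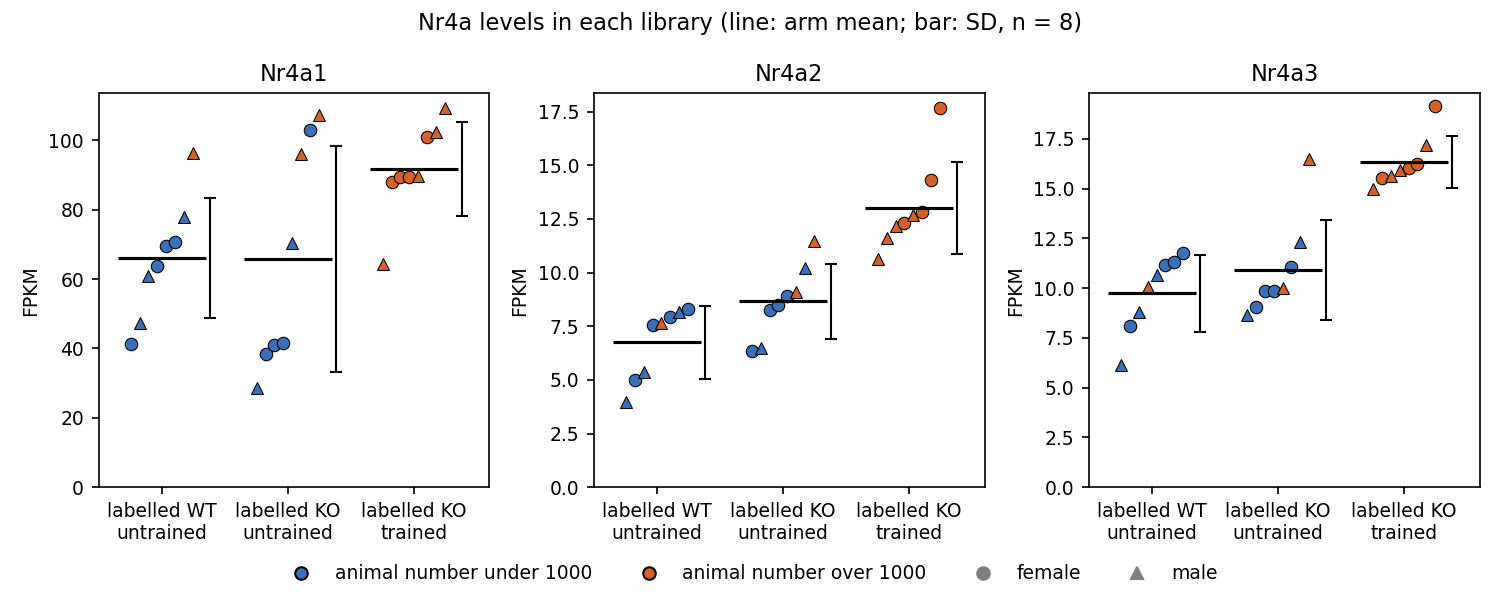
FPKM of Nr4a1, Nr4a2 and Nr4a3 (vertical axes, linear from 0) in each of 24 libraries by arm, with circles for females, triangles for males, blue for animal numbers under 1000, orange for numbers over 1000, a line at the arm mean and a bar for the SD (n = 8). The trained values of Nr4a2 and Nr4a3 lie above all values labelled WT, while Nr4a1 overlaps between the arms and its 3 orange untrained points lie at 96.2 FPKM or more.

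The 3 pairs of arms share their untrained libraries labelled KO, their libraries labelled WT or their trained libraries, so their differences are not independent and are set side by side. Trained minus untrained libraries labelled KO differed by 0.62 in Nr4a1, 0.55 in Nr4a2 and 0.56 in Nr4a3 on the log2(FPKM + 1) scale, or 1.39-fold, 1.5-fold and 1.5-fold in mean FPKM. Trained libraries minus those labelled WT differed by 0.50, 0.88 and 0.71, or 1.39-fold, 1.93-fold and 1.68-fold. Untrained libraries labelled KO minus those labelled WT differed by -0.12, 0.33 and 0.15, with overlap in all 3 genes. Without male library 3 labelled KO the last difference of Nr4a1 was 0.06, so 1 library set its sign, and with any other 1 left out it ran down to -0.27. The last difference of Nr4a3 was 0.06 without male library 1 labelled KO, and also without male library 3 labelled WT. As background, limma called 713 of 12572 tested genes (5.67%) between trained and untrained libraries labelled KO, 3074 (24.5%) between trained libraries and those labelled WT, and 179 (1.42%) between the untrained arms, at an adjusted p under 0.05. Nothing is read from these shares for the 3 Nr4a genes, whose choice used the same contrasts.

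Animal number went with Nr4a1 more than with Nr4a2 or Nr4a3. The 3 untrained animals over 1000, all male, had Nr4a1 at 96.4, 107.3 and 96.2 FPKM, above all 5 untrained males under 1000, which ran from 28.6 to 78.0 FPKM. Over the 16 untrained libraries the difference between number ranges was 0.85 on the log2 scale in Nr4a1, 0.34 in Nr4a2 and 0.26 in Nr4a3, and within untrained males it was 0.88, 0.45 and 0.35. The values of the other two genes rested on few animals. Without male library 1 labelled KO the difference over 16 libraries was 0.20 in Nr4a2 and 0.04 in Nr4a3, and in males 0.13 in Nr4a3. Without male library 3 labelled WT it was 0.30 in Nr4a2 and 0.23 in Nr4a3 in males. Untrained female library 4 labelled KO lay at 103.1 FPKM of Nr4a1 although its number is under 1000, so a high level was not limited to numbers over 1000. The same animal was in mid range for Nr4a2 (8.24 FPKM) and Nr4a3 (9.87 FPKM). Its number and that of untrained male library 4 labelled KO form a block apart from the other 11 under 1000. Nr4a1 averaged 86.7 FPKM in these 2 animals, and 52.8 FPKM with a highest value of 78.0 FPKM in the 11. The low set of the untrained arm labelled KO came wholly from the 11. The rest of that arm was these 2 animals and those over 1000. Whether Nr4a1 goes with such finer blocks was not tested.

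Among animals over 1000, trained animals were not above untrained ones in Nr4a1 on average, and were in the other two genes. The 3 untrained animals were males, 1 of them labelled WT, so sex and genotype label differ along with training. Nr4a1 was at 91.7 FPKM on average in the 8 trained animals and at 99.9 FPKM in the 3 untrained ones, a log2 difference of -0.14. The log2 difference was 0.43 in Nr4a2, with 7 of 8 trained libraries above all 3 untrained ones, and 0.43 in Nr4a3, with 2 of 8 above. For males alone, 4 trained against 3 untrained, the differences were -0.15, 0.31 and 0.40. Untrained male library 1 labelled KO held the Nr4a3 difference down, which without that library was 0.65 over both sexes and 0.62 in males. Without trained male library 1 the Nr4a1 difference was -0.07 over both sexes and 0.01 in males. It was -0.08 and -0.10 without untrained male library 1 labelled KO, and -0.25 in males without trained male library 3. Without male library 1 labelled WT the Nr4a2 difference in males was 0.18. With animal number as a covariate in the fit of all 16 libraries labelled KO, the training differences were -0.21, 0.24 and 0.31. Only 2 untrained libraries in that fit had numbers over 1000. Against the 6 untrained libraries labelled KO under 1000, trained libraries differed by 0.88 in Nr4a1 with overlap, and by 0.62 in Nr4a2 and 0.64 in Nr4a3 without overlap.

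Marker sums of other cell types overlapped between the number ranges of untrained animals. The excitatory neuron sum ran from 663.9 to 699.5 FPKM over 1000 and from 237.6 to 771.3 FPKM under 1000, and the striatal sum from 103.9 to 384.7 FPKM and from 89.2 to 767.1 FPKM. The sum over 7 interneuron markers ran from 723 to 801 FPKM over 1000, with a median of 790.1 FPKM, against 549.7 to 818.8 FPKM and a median of 648 FPKM under 1000. The sum over 6 astrocyte markers ran from 544.2 to 594.9 FPKM over 1000 and from 556.8 to 725.7 FPKM under 1000, and in the arms it was 556.8 to 674.2 FPKM labelled WT, 544.2 to 725.7 FPKM untrained labelled KO and 466.1 to 653.3 FPKM trained. In the same order of arms the interneuron sum ran from 549.7 to 801, from 612.4 to 818.8 and from 658.8 to 830.3 FPKM, and the sum over 6 endothelial markers from 24.8 to 36.9, from 24.8 to 41.1 and from 29.0 to 46.7 FPKM. The sum over 6 oligodendrocyte markers, in the same order of arms, ran from 808.1 to 1273, from 555.8 to 1061 and from 853.3 to 1426 FPKM, with medians of 1005, 966.8 and 1118 FPKM. Between trained and untrained libraries labelled KO the median log2 difference of these 6 genes was 0.29, and 0 passed in limma or limma-voom, with 4 at an unadjusted p under 0.05. By number range of untrained animals that sum ran from 938.1 to 1010 FPKM over 1000 and from 555.8 to 1273 FPKM under 1000. The endothelial sum ran from 27.5 to 41.1 FPKM (median 36.9) over 1000 and from 24.8 to 36.9 FPKM (median 30.4) under 1000. The sum over 5 microglia markers ran from 66.6 to 73.7 FPKM over 1000 and from 67.0 to 81.6 FPKM under 1000, and by arm from 71.2 to 81.6, from 66.6 to 79.0 and from 63.2 to 74.3 FPKM. The sum over 9 layer 6b and claustrum markers ran from 69.8 to 86.34 FPKM over 1000 and from 71.3 to 88.08 FPKM under 1000. By arm it ran from 80.65 to 88.08, from 69.8 to 86.34 and from 73.29 to 92.35 FPKM. Against libraries labelled WT, limma called 2 of the 9 higher and 3 lower in the trained arm, where 24.5% of all tested genes were called. Between the arms labelled KO 0 passed in limma, with 4 at an unadjusted p under 0.05. None of the markers in these lists that are in the table was at 0 on average, the lowest being Isl1 at 0.414 FPKM. The part of these markers in the Nr4a differences was not tested.

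**Figure D2:**
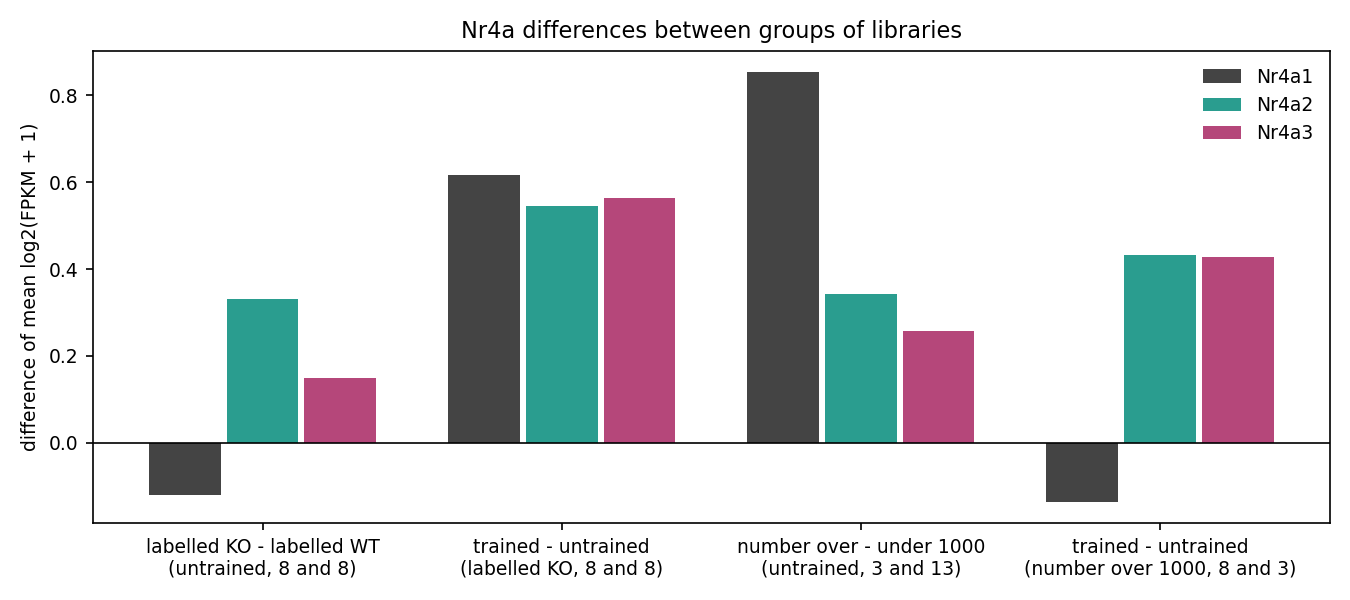
Differences of mean log2(FPKM + 1) for Nr4a1, Nr4a2 and Nr4a3 (bars from 0, no error drawn) in 4 comparisons named under the bars with their numbers of libraries. Nr4a1 stands at 0.85 for animal number and at -0.14 for training within numbers over 1000, where Nr4a2 and Nr4a3 each stand at 0.43. The last comparison sets 8 trained libraries labelled KO, of both sexes, against 3 untrained males, 1 of them labelled WT.

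Nr4a2 and Nr4a3 varied together from animal to animal, and Nr4a1 went less closely with either. Since the genes were chosen for this contrast, the correlations are a description and carry no p. They were computed on log2(FPKM + 1) within each number range. Among the 13 animals under 1000, all untrained, Nr4a2 and Nr4a3 had a Pearson r of 0.907 and a Spearman rho of 0.72, and r was 0.771 without the 2 animals farthest from the median of Nr4a2. In the same animals Nr4a1 had r = -0.090 with Nr4a2 (rho = -0.121) and r = 0.022 with Nr4a3 (rho = 0.11).

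Among the 11 animals over 1000, 8 of them trained, Nr4a2 and Nr4a3 had r = 0.839 and rho = 0.455, and r was 0.661 without the 2 animals farthest from the median of Nr4a2. Nr4a1 had r = -0.295 with Nr4a2 (rho = -0.591) and r = -0.021 with Nr4a3 (rho = 0.136). Without the 2 animals farthest from the median of Nr4a1, its r with Nr4a2 was -0.337 under 1000 and -0.450 over 1000, and with Nr4a3 -0.126 and -0.091. Each range mixes arms. After removal of the 6 means of arm and sex, r over the 24 libraries was 0.864 for Nr4a2 with Nr4a3, 0.215 for Nr4a1 with Nr4a2 and 0.313 for Nr4a1 with Nr4a3.

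**Figure D3:**
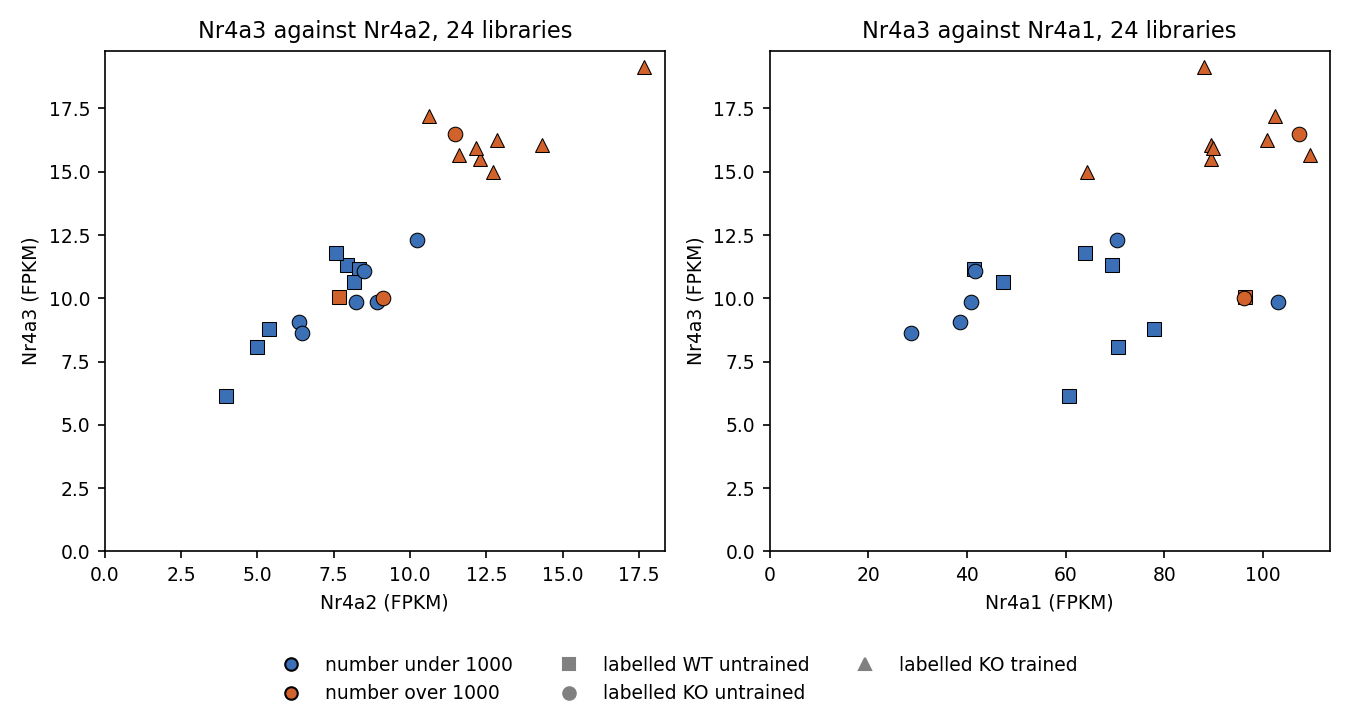
Nr4a3 (vertical axes, FPKM) against Nr4a2 (left) and Nr4a1 (right) in 24 libraries, with squares for untrained labelled WT, circles for untrained labelled KO, triangles for trained, and colour for animal number. Nr4a3 goes with Nr4a2 (r = 0.907 in the 13 blue points), while the blue points show no line against Nr4a1 (r = 0.022).

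The genes most like each Nr4a gene over the 24 libraries also differed. These likenesses are Pearson r of log2(FPKM + 1) among 12571 other tested genes. The libraries share arms, sexes and number ranges, so r is a description and carries no p. Nearest to Nr4a1 were the activity-induced factor Fos (0.955), the phosphatase gene Dusp1 (0.948), the synaptic gene Arc (0.939), the zinc finger factor Egr2 (0.924) and the neuronal factor Npas4 (0.887). The same 5 genes led after removal of the arm and sex means, at 0.917 to 0.961. Within the 13 animals under 1000 their r was 0.812 to 0.967, and within the 11 over 1000 it was 0.603 to 0.950. In the order of likeness to Nr4a1, Nr4a3 stood at place 967 and Nr4a2 at place 1657.

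Nearest to Nr4a2 were Nr4a3 (0.941), the Fos family member Fosl2 (0.911), the heat shock cognate Hspa8 (0.871), the homeobox factor Pknox1 (0.869) and the phosphatase subunit Ppp1cc (0.861). Nearest to Nr4a3 were Nr4a2 (0.941), the co-chaperone Dnajb5 (0.901), Fosl2 (0.893), the zinc finger gene Zbtb2 (0.869) and Hspa8 (0.866). After removal of the arm and sex means, Nr4a2 was followed most closely by Nr4a3 (0.864), the phosphatase gene Dusp4 (0.862), the heat shock protein gene Hsp90aa1 (0.856), Sh3bp1 (0.831) and the repressor Bcl6 (0.815). For Nr4a3 the order was Dnajb5 (0.893), Nr4a2 (0.864), Zfp251 (0.851), Hsp90aa1 (0.824) and Fosl2 (0.822). No gene of the Nr4a1 set was among these.

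Across 12 activity-induced transcription factors the likeness was uneven. After removal of the arm and sex means, Fos, Egr2, Npas4 and the early response gene Ier2 had r of 0.961, 0.922, 0.917 and 0.908 with Nr4a1, but 0.241, 0.322, 0.078 and 0.016 with Nr4a2 and 0.318, 0.532, 0.249 and 0.066 with Nr4a3. The zinc finger factor Egr3 and Fosl2 had r of 0.494 and 0.478 with Nr4a1, against 0.636 and 0.811 with Nr4a2 and 0.737 and 0.822 with Nr4a3. Egr1 (0.835, 0.511 and 0.635 with Nr4a1, Nr4a2 and Nr4a3) and Fosb (0.627, 0.567 and 0.701) went with all 3 by this measure. It keeps differences between number ranges. Within animals under and over 1000, Egr1 had r of 0.344 and -0.335 with Nr4a2 and 0.457 and 0.150 with Nr4a3. Fosb had 0.244 and 0.435 with Nr4a1 and 0.705 and 0.113 with Nr4a2. By the residual measure 9 of the 12 were closest to Nr4a1, Egr3 and Fosl2 were closer to both other genes, and Fosb was closer to Nr4a3. Under 1000, Klf4 was closer to Nr4a2 (0.178) than to Nr4a1 (0.085), and Egr4 closer to Nr4a3 (0.458) than to Nr4a1 (0.436). The differences between these correlations were not tested. By the mean log2(FPKM + 1) of the 12 factors, the 3 untrained animals over 1000 stood at places 2, 5 and 6 of 24, and by Nr4a1 at places 2, 6 and 7. By Nr4a2 the same animals stood at places 8, 11 and 18, and by Nr4a3 at places 3, 16 and 17.

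**Figure D4:**
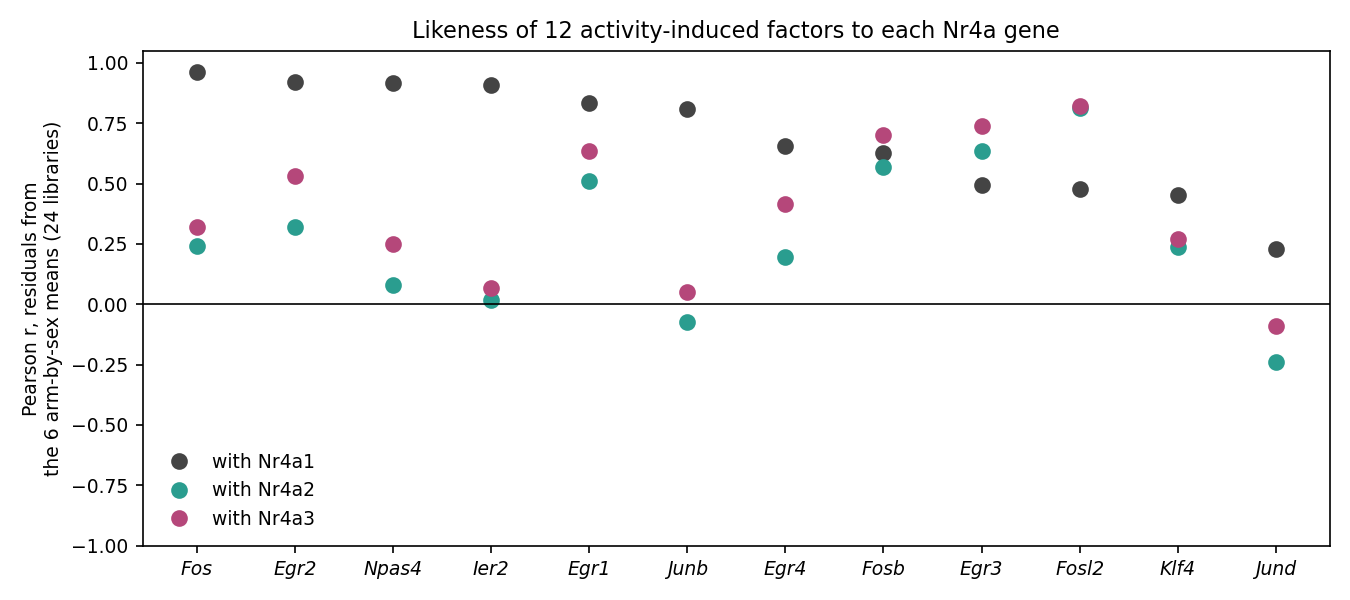
Pearson r over 24 libraries (vertical axis), after removal of the 6 arm-by-sex means, between each Nr4a gene (colours) and 12 activity-induced factors (horizontal axis, ordered by likeness to Nr4a1). Fos stands at 0.961 with Nr4a1 and 0.241 with Nr4a2, whereas Fosl2 stands at 0.478 and 0.811.

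Sex gave no call for any of the 3 genes in limma, with 0 at an unadjusted p under 0.05 and 0 in limma-voom on recovered reads. It was not itself used to choose the genes, but animal number was. All 3 untrained animals over 1000 were male, so sex is not fully independent of that choice. In the limma fit over 24 libraries with arm as a covariate, males minus females differed by 0.18 in Nr4a1 (95% interval -0.20 to 0.56, adjusted p = 0.488). The difference was -0.09 in Nr4a2 (-0.30 to 0.13, adjusted p = 0.572) and -0.03 in Nr4a3 (-0.22 to 0.15, adjusted p = 0.809). The direction of the Nr4a1 value was not steady: it was -0.05 with animal number as a covariate, -0.17 with number and the GC and length correction, and 0.35 with weights for each library. Of all tested genes, 28.6% were called for sex in the same fit.

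Training differences were larger in females than in males in all 3 genes, but the interaction passed in none. Trained minus untrained libraries labelled KO differed in females by 0.83, 0.76 and 0.69 on the log2 scale for Nr4a1, Nr4a2 and Nr4a3, and in males by 0.40, 0.33 and 0.43. The interaction in limma was -0.43 for Nr4a1 (95% interval -1.49 to 0.63, adjusted p = 0.708), -0.43 for Nr4a2 (-0.86 to 0.00, adjusted p = 0.322) and -0.26 for Nr4a3 (-0.66 to 0.14, adjusted p = 0.529). For Nr4a1 it ran from -0.84 to -0.21 with 1 library left out, was -1.17 with weights for each library, where it passed (limma adjusted p = 0.0329), and turned to 0.15 with animal number as a covariate (limma adjusted p = 0.894). With that covariate it was -0.28 for Nr4a2 and -0.11 for Nr4a3. All 4 untrained females labelled KO had numbers under 1000, against 2 of 4 untrained males, so the sexes also differ here in animal number. The interaction of genotype label with sex was 0.22, 0.37 and 0.44 (limma adjusted p = 0.987, 0.980 and 0.980). For Nr4a1 it was -0.02 with animal number as a covariate.

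Other genes around the receptors were counted from lists, with earlier results of these data known. Of 14 activity-induced factors 12 were tested. Between trained and untrained libraries labelled KO, 5 of the 12 rose and none fell (limma, adjusted p under 0.05): Egr2 by 0.81, Egr3 by 0.63, the factor Klf4 by 0.49, the Fos family member Fosb by 0.48 and Fosl2 by 0.39. Of all tested genes 5.67% were called in that comparison. The median over the 12 was 0.48, against 0.01 over all tested genes. Fos differed by 0.65 (adjusted p = 0.124), Egr1 by 0.54 (adjusted p = 0.0900) and Npas4 by 0.48 (adjusted p = 0.208). With animal number as a covariate, 0 of the 12 passed in limma, 0 had an unadjusted p under 0.05, and the median was -0.04 with 4 of 12 positive. In that fit 0 of all tested genes passed. It holds only 2 untrained libraries over 1000, both male, so training and number are hardly told apart in it. The main count of 5 became 2 or 3 without any 1 of 12 libraries: trained females 1 to 4, trained males 2 and 3, untrained females 1 to 3 and untrained males 2 to 4. Egr3 and Klf4 passed in each of the 16 fits that left out 1 library.

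Against the libraries labelled WT, 8 of the 12 were higher in the trained arm and none lower. Of all tested genes 24.5% were called there. Fosl2 was higher by 0.74, Fosb by 0.74, Fos by 0.70, Egr3 by 0.64, Egr2 by 0.64 and Npas4 by 0.55, and the median was 0.53 against 0.00 over all tested genes. The replicate block left 5 of these calls, and with animal number as a covariate 0 of the 12 passed in limma and 0 had an unadjusted p under 0.05. Only 1 library labelled WT had a number over 1000, so arm and number are hardly told apart in that fit. Between the untrained arms 0 of 12 passed in limma, with 1 at an unadjusted p under 0.05 and 0 in limma-voom on recovered reads. For sex, where 28.6% of all tested genes were called, only Npas4 of the 12 passed. It was higher in males by 0.51 (limma adjusted p = 0.0348), and did not pass with animal number as a covariate or in limma-voom. It also did not pass without any 1 of 9 libraries: untrained males 1 and 2 and females 1 to 3 labelled KO, trained female 1, and males 1 and 4 and female 4 labelled WT.

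The retinoid X receptors, which pair with Nur77 and Nurr1, passed between arms only in some alternative fits. In each of the 3 pairs of arms 0 of 3 passed in limma, with 1 at an unadjusted p under 0.05 and 0 in limma-voom. For Rxrb the trained-minus-untrained difference among libraries labelled KO was 0.15 (limma adjusted p = 0.0697) and passed at 0.17 after correction for GC content and length (limma adjusted p = 0.0388). It also passed there in one fit of 24 libraries, with library weights, and without trained male 4 or untrained male 4, and against libraries labelled WT without trained male 4. For sex 28.6% of all tested genes were called. Rxra was higher in males by 0.16 and Rxrb by 0.12 (limma adjusted p = 0.0145 and 0.0154), but neither passed after correction for GC content and length or with animal number as a covariate. Of 10 nuclear receptor coregulators, 0 passed in limma or limma-voom between the untrained arms or between the arms labelled KO, with 0 and 1 at an unadjusted p under 0.05. After correction for GC content and length Ncoa3 passed between the arms labelled KO. The coactivator Ncoa3 alone was higher in trained libraries than in those labelled WT, by 0.21 (limma adjusted p = 0.0339). It was 1 call of 10 where 24.5% of all tested genes were called. That call was lost without any 1 of 9 libraries: trained females 1, 3 and 4, trained males 1 and 4, and females 1 to 3 and male 3 labelled WT. It was lost too with animal number as a covariate, with equal sums and with the replicate block, while the GC and length correction kept it and added Rcor1. For sex the corepressor subunit Hdac3 was higher in males by 0.10 (limma adjusted p = 0.0280), a call lost without trained male 3, untrained female 2 labelled KO or male 4 labelled WT. The Hdac3 call was lost too with equal sums, quantile normalization or the replicate block.

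Of 18 genes that act upstream of the Nr4a promoters, 0 passed in limma or limma-voom between the untrained arms, with 3 at an unadjusted p under 0.05. Between trained and untrained libraries labelled KO limma called 5.67% of all tested genes. Of the 18 only the factor Mef2a passed, and it fell by 0.20 (limma adjusted p = 0.0423), while limma-voom called 3. That call was lost without any 1 of 9 libraries: trained females 1 to 4, trained male 3, untrained females 1 to 3 and untrained male 1. It was lost too with the GC and length correction, the number covariate, the replicate block or no sex covariate. Against libraries labelled WT, 2 were higher in the trained arm and 6 lower, where 24.5% of all tested genes were called. The CREB family member Crem was higher by 0.34 and serum response factor Srf by 0.28, while the calcium-dependent kinase Camk4 fell by 0.34, the kinase Rps6ka4 by 0.27, Mef2a by 0.25 and Mef2c by 0.20. Mef2c did not pass after correction for GC content and length, and with animal number as a covariate 0 of the 18 passed in limma, with 4 at an unadjusted p under 0.05. For sex 6 of 18 passed, a share near the 28.6% of all tested genes. Higher in males were Mapk3 by 0.30, Crtc1 by 0.20, Srf by 0.20 and Prkaca by 0.12, and Creb1 and Mef2a fell by 0.21 and 0.17 in males. After correction for GC content and length Crtc1 alone of these 6 passed.

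Endoplasmic reticulum chaperones, which work on memory has placed downstream of the receptors, had the largest share of calls for training among these lists. Their list also holds Xbp1, which is a transcription factor and no chaperone. Between trained and untrained libraries labelled KO, 8 of 9 rose and none fell, where 5.67% of all tested genes were called. Sdf2l1 rose by 0.98, the disulfide isomerase Pdia4 by 0.79, Creld2 by 0.66, the main luminal chaperone Hspa5 by 0.65, Pdia6 by 0.55 and the unfolded protein response factor Xbp1 by 0.52. Hspa5 was at 88.2 ± 19.6 FPKM in libraries labelled WT, 91.7 ± 12.5 FPKM in untrained ones labelled KO and 144.3 ± 15.4 FPKM in trained ones (SD, n = 8 each), so the trained mean was above both untrained ones. Dnajb9 was the member that did not pass, at 0.09 (limma adjusted p = 0.387). The median over the 9 was 0.55, against 0.01 over all tested genes, and the count was 8 in each fit that left out 1 library and 6 with the replicate block.

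With animal number as a covariate 0 of the 9 genes of this list passed in limma, as 0 of all tested genes did. In that fit 9 of 9 were positive, with a median of 0.42, and 9 of 9 had an unadjusted p under 0.05. Of all tested genes 10.4% had an unadjusted p under 0.05 in that fit. The median log2 difference of the 12 activity-induced factors was -0.04 in the same fit, with 0 at an unadjusted p under 0.05. Only 2 untrained libraries in it had numbers over 1000, both male, so training and number are hardly told apart. Both lists were chosen with earlier results of these data known, so these unadjusted counts are no independent support. Against libraries labelled WT, 8 of 9 genes of the chaperone list were higher in the trained arm, with a median of 0.59, where 24.5% of all tested genes were called. Hsp90b1 did not pass without trained female 1, trained male 1, or male 4 or female 3 labelled WT. With animal number as a covariate 0 of the 9 passed there in limma, with 7 at an unadjusted p under 0.05 against 9.93% of all tested genes. Between the untrained arms 0 of 9 passed in limma or limma-voom, with 0 at an unadjusted p under 0.05. For sex 3 of 9 passed, a share near the 28.6% of all tested genes. Hsp90b1, Dnajb9 and Dnajc3 fell by 0.18, 0.20 and 0.19 in males, and none of them passed after correction for GC content and length.

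**Figure D5:**
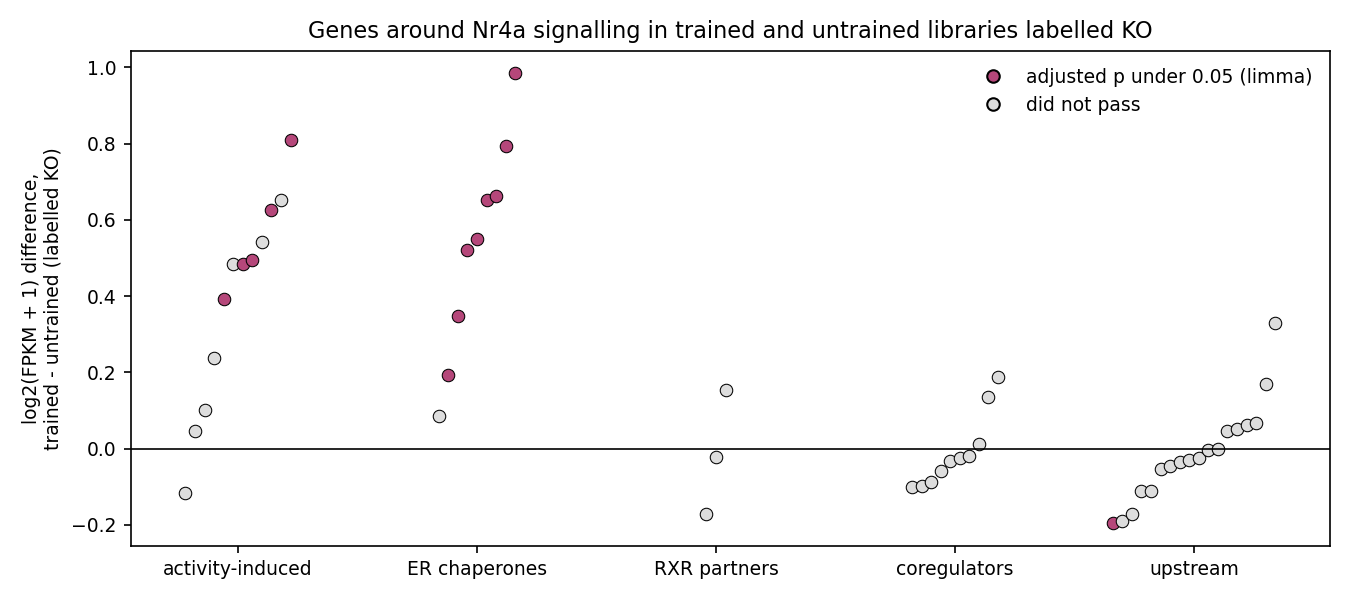
Log2(FPKM + 1) differences of trained minus untrained libraries labelled KO (vertical axis) for tested genes of 5 lists (horizontal axis), 1 point a gene, filled in colour where the limma adjusted p was under 0.05. In the chaperone list 8 of 9 points are coloured and in the activity-induced list 5 of 12, while the retinoid X receptors and coregulators have none.

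Of 7 genes that Nurr1 is known for in dopamine neurons, 4 are in the table and 2 were tested, and 0 of 2 passed in limma for genotype label or training, with 0 at an unadjusted p under 0.05 and 0 in limma-voom. Th, the first enzyme of dopamine synthesis, was at 1.48 ± 0.554 FPKM labelled WT, 1.63 ± 1.29 FPKM in untrained libraries labelled KO and 1.26 ± 0.318 FPKM in trained ones (SD, n = 8 each). Ddc, the next enzyme, was higher in trained libraries than in those labelled WT by 0.31 (limma adjusted p = 0.0281), a call lost without any 1 of trained females 1 to 3 or females 1 to 3 labelled WT. It was higher in males by 0.28 (limma adjusted p = 0.0173), and neither call passed after correction for GC content and length.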

How the data were processed

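The 24 libraries, 1 for each mouse, were made from poly(A) RNA of bulk tissue with a strand-keeping kit, per the labels' protocols. The authors deposited FPKM values for 15232 genes. FastQC 0.11.7, Trimmomatic 0.38, STAR 2.5.3a, featureCounts, Subread 1.6.3 and mm10 are named in the submitters' processing notes. The annotation, the gene filter and the FPKM computation are not given in the sources used here. Columns were tied to samples by animal number. Within a gene, values step by what 1 read is worth, which gave back whole reads for 15231 genes (tolerance 0.01 read) and the depth per library. The recovery was tested on simulated data.

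Limma 3.58.1 in R 4.3.3 (eBayes with trend) was run on log2(FPKM + 1), with Benjamini-Hochberg adjustment over the 12572 genes with a mean of at least 1 FPKM and a threshold of 0.05. Differences on this scale understate the change of low genes. Each pair of arms was fitted on its own with a term for sex, and sex was fitted over 24 libraries with a term for arm. Tested on simulated data with 200 genes changed 2-fold between the untrained arms, the fit called 197 of them and 10 others. Correlations between the Nr4a genes, for which a permutation test had been planned, are given without a p because the genes were chosen for that pattern. They were computed in Python 3.11.15 (numpy 2.4.6, pandas 2.3.3, scipy 1.17.1). P-values measure the spread between animals.

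The genes and lists were chosen with earlier results of these data known, and patterns seen then are not independent support. Named are the Nr4a genes, the 5 genes most like each by either measure, and the members of each list past the threshold over all genes, at most the 6 largest. Genes named outside this rule, such as Ier2, Th and Dnajb9, were chosen after their values were seen. Limma-voom on recovered reads, the fit of animals under 1000 and the joint GC, length and number correction were alternatives added after seeing the data. The replicate numbers name different animals. Fits with the replicate block that hold trained libraries drop the unnumbered trained female, and also female library 4 of each other arm in the fit. They thus rest on fewer libraries, and all block fits hold more terms than the main fits.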

Additional observations from a re-analysis of the deposited data

Results flagged for a closer look

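Of 57 groups, each 1 gene in 1 arm, 7 had a library far from the rest of its arm. A rate of 1 in 20 gives 2.9. The genes share libraries and most were picked because they passed in these data, so 2.9 is no fair expectation here. Nr4a1 in trained male library 1 was at 64.25 FPKM, with the other 7 of the arm at 88.1 to 109.5 FPKM. Nr4a3 in untrained male library 1 labelled KO was at 16.49 FPKM, with the others at 8.626 to 12.32 FPKM. The same library had Fosb at 13.62 FPKM, with the others at 5.072 to 8.82 FPKM, and Egr2 at 14.77 FPKM, with the others at 2.854 to 8.497 FPKM. Male library 1 labelled WT had Fos at 48.82 FPKM, with the others at 17.24 to 30.91 FPKM, and Klf4 at 2.324 FPKM, with the others at 1.474 to 1.873 FPKM. Sdf2l1 in female library 4 labelled WT was at 9.226 FPKM, with the others at 3.887 to 6.165 FPKM. Both untrained male libraries named here had animal numbers over 1000, and the causes were not tested.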

How the results depend on the processing

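The sex effects of the Nr4a genes and the interactions of sex with genotype label did not pass under any alternative run, but some Nr4a1 values changed sign: the number covariate took its sex effect to -0.05 (-0.17 with the GC and length correction added), its training by sex interaction to 0.15 and its genotype by sex interaction to -0.02. With animal number as a covariate, trained minus untrained libraries labelled KO moved to -0.21 in Nr4a1, 0.24 in Nr4a2 and 0.31 in Nr4a3, and trained minus labelled WT to -0.092 in Nr4a1 and 0.55 in Nr4a2. Trained minus untrained over 1000 in Nr4a3 ran from 0.32 to 0.65 with 1 library left out. Library weights took the training by sex interaction of Nr4a1 to -1.17. The r of Nr4a2 with Nr4a3 over 1000 was 0.661 without 2 animals.

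Of the 12 activity-induced factors, the 5 called for training became 3 with equal sums, quantile normalization or no trend, 2 without the sex covariate, and 0 with the number covariate, and ran from 2 to 6 with 1 library left out. For trained against labelled WT the 8 became 0 with the number covariate. For sex the 1 became 6 with library weights and 0 with the GC and length correction, the number covariate, both together, or limma-voom, and ran from 0 to 3 with 1 library left out. The replicate block gave 0 for training, 5 for trained against labelled WT and 0 for sex. Same-numbered libraries did not deviate together (mean correlation 0.02, -0.07 and -0.10 in the 3 pairs of arms), and the numbers name different animals.

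Over all genes, training calls numbered 713, 29 with the replicate block, 422 without the sex covariate, 1238 in one fit of 24 libraries, 2020 with weights, 0 with the number covariate and 330 to 945 with 1 library left out. Calls between untrained arms numbered 179, 98 without the sex covariate, 297 with weights, 114 with the block and 115 to 340 with 1 library left out. Trained against labelled WT gave 3074, 1614 with the block and 22 with the number covariate. Sex gave 3595, 2221 with the block, 741 with the GC and length correction and fewer with the number added. The causes were not tested. With 3 untrained animals over 1000, all male, differences within that range and fits with the number covariate rest on few libraries.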
